A study of Mus musculus with 6 samples.

Results

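A set of 10 genes that build, hold and untangle mitotic chromosomes was followed in fibroblasts treated with erastin. They encode the proliferation marker Ki-67 (Mki67), both isoforms of DNA topoisomerase II (Top2a and Top2b), the SMC pair of cohesin (Smc1a and Smc3), the SMC pair of condensin (Smc2 and Smc4) and the 3 subunits found only in condensin I (Ncapd2, Ncapg and Ncaph). The genes were taken by symbol, through the GENCODE M21 annotation, and all 10 were found among the 43346 genes of the count table.

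SMC proteins are long coiled-coil ATPases that work in pairs and close into rings around DNA. Cohesin holds sister chromatids together from replication to anaphase and, throughout interphase, forms the chromatin loops that stop at CTCF sites. Condensin folds chromosomes for mitosis; condensin II is nuclear and acts from prophase, while condensin I reaches chromosomes after the nuclear envelope breaks down. Topoisomerase II passes one DNA duplex through another; the alpha isoform is made mainly by dividing cells, and the beta isoform is also present in cells that do not divide. Ki-67 coats the surface of mitotic chromosomes and keeps them apart.

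The cells were primary embryonic fibroblasts (MEF) of C57BL/6 mice at passage 9, grown with serum and 2-mercaptoethanol. Erastin blocks uptake of cystine by system xc- and is used to induce ferroptosis, an iron-dependent death by lipid peroxidation. Cells of 3 libraries received 3 µM erastin and those of the other 3 the solvent DMSO, each for 24 h. The design text says the experiment was done in triplicate; it does not say whether the replicates came from different embryos, so p-values measure the spread between these libraries, which may be technical. Ribosomal RNA was depleted before sequencing, and values are whole-number read counts per gene.

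Libraries held 13333911 to 20509970 counts. As a reference floor, by which no gene was dropped, 3 counts were worth 0.14 to 0.234 CPM (counts per 1000000 after TMM scaling of library sizes). The first principal component (60.4% of the variance) separated the treatments, and the second (14.5%) placed DMSO replicate 3 at -43.9 and the other DMSO libraries at 30.6 and 19.6. All 12 fibroblast markers were detected; their summed level was 38400 to 42200 CPM in DMSO and 28500 to 29900 CPM in erastin libraries. Lists for other cell types had lower sums. In DMSO and erastin libraries the sums were 2.18 to 3.25 and 2.14 to 3.17 CPM for 6 epithelial genes. The sum of 5 endothelial genes was 4.99 to 8.24 CPM in DMSO and 14.9 to 18.0 CPM with erastin, most of it from Kdr and Tek. Group means were 0.0948 and 0.372 CPM for Pecam1, 0.232 and 0.347 CPM for Cdh5 and 0.748 and 1.40 CPM for Vwf, so all 5 had the higher mean with erastin. For 4 muscle genes the sums were 35.5 to 45.4 and 65.0 to 68.5 CPM, nearly all Des, and for 5 neural genes, mainly Nes and Tubb3, 121 to 156 and 116 to 142 CPM. The part of these shifts in the results below was not tested.

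The promoters are shown first because the letters of a known cell cycle element were unevenly spread among the 9 genes with a matched sequence. Smc4, which was also lower with erastin, had no matched sequence. Whether these letters bear on the fold changes was not tested. Promoters of genes expressed in G2 and mitosis are known to carry the cell cycle genes homology region (CHR), bound by the DREAM and MMB complexes, and CCAAT boxes, bound by NF-Y. RefSeq sequences (GRCm38.p6) were matched for 9 of the 10 genes, and the 250 bases before the RefSeq start were searched on both strands for TTTGAA or TTCGAA (CHR), CCAAT, and the E2F forms TTTCCCGC, TTTCGCGC, TTTGCCGC and TTTGGCGC. No form overlaps another in these sequences. RefSeq and GENCODE starts differ: the window reaches into the GENCODE gene span given below by 115 bases for Ncapd2 (not printed), 27 for Top2b and 6 for Ncapg, and by 0 for the other 6 genes. Below, capitals mark the matches, and a match on the other strand reads TTCAAA or ATTGG; each sequence runs 5′ to 3′ on the gene's strand. The first 4 belong to genes that fell with erastin, the last 2 to relatives that did not pass as lower. Ncapd2, Smc1a and Ncaph are not printed. Ncaph also fell, and its window held no match to any of these forms.
Mki67, chr7:135716380-135716629, minus strand: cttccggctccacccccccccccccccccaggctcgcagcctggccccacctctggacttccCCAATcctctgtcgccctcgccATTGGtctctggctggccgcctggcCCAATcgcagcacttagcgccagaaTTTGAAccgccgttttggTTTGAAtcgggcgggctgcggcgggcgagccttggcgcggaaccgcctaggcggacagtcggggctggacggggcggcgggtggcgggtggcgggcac
Top2a, chr11:99024190-99024439, minus strand: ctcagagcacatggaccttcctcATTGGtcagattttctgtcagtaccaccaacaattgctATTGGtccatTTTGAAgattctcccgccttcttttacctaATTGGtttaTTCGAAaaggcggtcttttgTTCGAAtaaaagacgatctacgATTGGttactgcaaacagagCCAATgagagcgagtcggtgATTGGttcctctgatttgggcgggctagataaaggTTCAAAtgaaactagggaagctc
Smc2, chr4:52438971-52439220, plus strand: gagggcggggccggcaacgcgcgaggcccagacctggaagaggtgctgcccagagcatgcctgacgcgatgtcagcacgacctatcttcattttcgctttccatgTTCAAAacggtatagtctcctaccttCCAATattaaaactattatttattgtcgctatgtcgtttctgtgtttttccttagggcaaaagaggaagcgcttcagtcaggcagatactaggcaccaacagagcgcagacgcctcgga
Ncapg, chr5:45669675-45669924, plus strand: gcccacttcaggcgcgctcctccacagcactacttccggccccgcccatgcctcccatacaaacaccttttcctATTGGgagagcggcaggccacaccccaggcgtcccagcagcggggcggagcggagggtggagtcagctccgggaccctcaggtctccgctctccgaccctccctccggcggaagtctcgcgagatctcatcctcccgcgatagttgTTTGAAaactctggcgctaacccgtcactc
Top2b, chr14:16364956-16365205, plus strand: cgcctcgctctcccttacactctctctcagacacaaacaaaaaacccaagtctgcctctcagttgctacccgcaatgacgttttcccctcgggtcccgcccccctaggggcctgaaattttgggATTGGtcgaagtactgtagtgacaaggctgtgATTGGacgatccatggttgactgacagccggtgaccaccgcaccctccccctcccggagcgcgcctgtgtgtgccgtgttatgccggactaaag
Smc3, chr19:53600146-53600395, plus strand: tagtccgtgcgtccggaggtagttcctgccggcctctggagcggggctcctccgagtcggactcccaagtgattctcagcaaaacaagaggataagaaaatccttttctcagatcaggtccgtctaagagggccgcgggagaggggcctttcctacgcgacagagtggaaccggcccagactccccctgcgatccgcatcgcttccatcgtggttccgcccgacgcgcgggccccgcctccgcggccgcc

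CHR letters were present in 5 of the 6 promoters of genes that were lower with erastin (Mki67, Top2a, Smc2, Ncapd2 and Ncapg, not Ncaph) and in 0 of the 3 of genes that were not lower (Top2b, Smc1a and Smc3). Among 27025 promoters of the same length, 1 per gene, 17.4% held them. The Top2a promoter had 4 matches to CHR and 6 to CCAAT, and that of Mki67 had 2 and 3. The same 5 promoters held CCAAT as well, a combination found in 6.21% of all promoters; CCAAT, with or without CHR letters, was present in 34.5%, and also in Top2b (2 matches) and Smc1a (1). An E2F form, seen in 1.91% of promoters, occurred only in Ncapd2 among the 9; it lies in the 8 bases before the RefSeq start, within the stretch inside the GENCODE gene span. These matches describe the letters in this window and are no evidence of binding.

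As a share of the counted RNA, erastin-treated fibroblasts held far less RNA of Ki-67, of topoisomerase II alpha and of the 3 condensin I subunits. On the same scale they held somewhat less of the condensin SMC pair and more of the cohesin gene Smc3. Smc1a and Top2b did not pass the test. With edgeR (quasi-likelihood, Benjamini-Hochberg adjustment over 14000 genes, threshold 0.05), 7 of the 10 genes were lower and 1 was higher. The shares of all genes tested were 21.5% lower and 21.6% higher. In the same 7 genes every erastin library lay below every DMSO library, against 25.9% of all genes tested. The median log2 fold change of the 10 was -0.98, beside -0.0014 for all genes. In bulk RNA, fewer cycling cells and less RNA per cycling cell cannot be told apart.

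**Figure D1:**
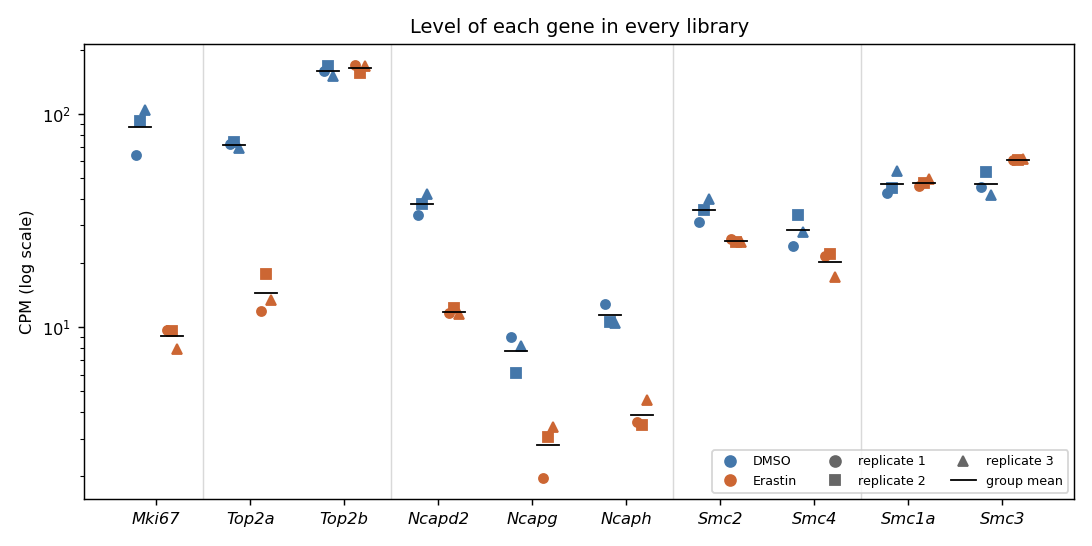
CPM on a log axis for the 10 genes; each symbol is a library (blue DMSO, orange erastin, shape by replicate number) and lines are group means. The groups are apart for Mki67, Top2a and the condensin genes, mix for Top2b and Smc1a, and the 3 erastin libraries lie above DMSO for Smc3.

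Mki67 (ENSMUSG00000031004.7, GRCm38 chr7:135689784-135716361, minus strand) fell most. Its level was 64.3, 93.0 and 104 CPM in DMSO replicates 1, 2 and 3, and 9.68, 9.58 and 7.93 CPM in erastin replicates 1, 2 and 3. Every erastin library was thus far below the lowest DMSO library, although DMSO replicate 1 stood well under the other two. The mean went from 87.0 ± 20.4 to 9.07 ± 0.981 CPM (SD, n = 3), 9.59-fold lower. On the log2 scale this was -3.26 with an SE of 0.16 (edgeR, adjusted p = 1.9e-09). Only 55 of the 14000 genes tested had a lower fold change.

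Top2a (ENSMUSG00000020914.13, chr11:98992943-99024189, minus strand) encodes the isoform that untangles sister chromatids before they separate. It was measured at 72.0, 73.4 and 69.2 CPM in DMSO and 11.9, 17.8 and 13.4 CPM in erastin libraries. The DMSO libraries were close together, and the highest erastin library, replicate 2, remained far under them. The mean went from 71.5 ± 2.14 to 14.4 ± 3.06 CPM (SD, n = 3), or 20% of the DMSO level. The log2 change was -2.32, SE 0.13 (adjusted p = 7.73e-09 by edgeR).

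Top2b (ENSMUSG00000017485.6, chr14:16365179-16435462, plus strand) had 158, 167 and 151 CPM in DMSO and 170, 155 and 167 CPM in erastin libraries. The groups overlapped. The log2 fold change of 0.05 (SE 0.08) did not pass (edgeR adjusted p = 0.651), and its 95% interval of -0.12 to 0.21 does not reach the change of Top2a. Of its exon bases, 12.3% are shared with Rarb on the opposite strand; since the strand setting of the counting is not given in the sources used here, reads of Rarb could be counted there. The sign of this small difference turned to -0.11 after a correction for GC content and length.

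Within each library the 2 isoforms were set against each other on the scale of CPM per kilobase of exon, a ratio that no scaling factor can change. The log2 ratio of Top2a to Top2b was -0.43, -0.49 and -0.43 in DMSO and -3.14, -2.42 and -2.94 in erastin libraries. The alpha isoform was below the beta isoform in every library, and much further below with erastin. The ratio was 5.22-fold lower with erastin (mean log2 -0.45 ± 0.03 against -2.84 ± 0.37, SD, n = 3; exact two-sided permutation test, p = 0.1, the smallest that 3 against 3 libraries can give; 0.14 adjusted over 7 ratios).

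The 3 genes particular to condensin I by name and role, Ncapd2, Ncapg and Ncaph, all fell. Ncapd2 (ENSMUSG00000038252.9, chr6:125168007-125191701, minus strand), a HEAT-repeat subunit, had 33.6, 37.9 and 42.3 CPM in DMSO and 11.6, 12.3 and 11.5 CPM with erastin. Its groups were well separated, and it was at 31.1% of the DMSO level (37.9 ± 4.32 and 11.8 ± 0.47 CPM, SD, n = 3). The log2 change was -1.69, SE 0.13 (adjusted p by edgeR 1.67e-07).

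Ncapg (ENSMUSG00000015880.9, chr5:45669919-45700546, plus strand), the other HEAT-repeat subunit, was the least counted gene of the 10, with 105 to 119 reads in DMSO and 42 to 66 in erastin libraries. In CPM it stood at 8.99, 6.10 and 8.17 against 1.96, 3.05 and 3.42. The groups did not overlap, and the relative spread was wide. It was at 36.3% of the DMSO level (log2 change -1.46, SE 0.30, edgeR adjusted p = 0.00129). Lcorl on the opposite strand shares 13.4% of its exon bases.

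Ncaph (ENSMUSG00000034906.11, chr2:127103809-127133954, minus strand) encodes the kleisin that bridges the heads of the SMC pair in condensin I. It was measured at 12.9, 10.6 and 10.5 CPM in DMSO and 3.58, 3.47 and 4.56 CPM in erastin libraries, without overlap. The level was 34.2% of that in DMSO (log2 change -1.55, SE 0.23, edgeR adjusted p = 8.01e-05).

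Smc2 and Smc4, the ATPases shared by condensin I and II, fell with smaller log2 changes. Smc2 (ENSMUSG00000028312.15, chr4:52439243-52488260, plus strand) had 31.1, 35.3 and 40 CPM in DMSO and 26, 25 and 25.2 CPM with erastin. The erastin libraries were nearly equal and all lower. The level was 71.7% of that in DMSO (log2 change -0.48, SE 0.12, edgeR adjusted p = 0.00505).

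Smc4 (ENSMUSG00000034349.10, chr3:69004738-69034623, plus strand) had 23.9, 33.5 and 28.0 CPM in DMSO and 21.6, 22.0 and 17.1 CPM with erastin. The groups only just separated, DMSO replicate 1 lying close above erastin replicate 2. It was at 70.8% of the DMSO level (log2 change -0.50, SE 0.15, edgeR adjusted p = 0.0163). The call rested on single libraries: it did not pass without DMSO replicate 2 (-0.36, edgeR adjusted p = 0.111) or without erastin replicate 3 (-0.39, edgeR adjusted p = 0.0662).

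The proportion of Smc2 to Smc4 showed no difference beyond the spread. The log2 ratio of Smc2 to Smc4 per kilobase was 0.31, 0.00 and 0.44 in DMSO and 0.20, 0.12 and 0.49 in erastin libraries, with overlapping groups and a difference of 0.02 (exact permutation p = 0.9). Against the cohesin gene Smc1a, Smc2 went from -0.37, -0.28 and -0.36 to -0.74, -0.85 and -0.90, a ratio 1.41-fold lower with erastin (exact permutation p = 0.1; 0.14 adjusted over 7 ratios).

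**Figure D2:**
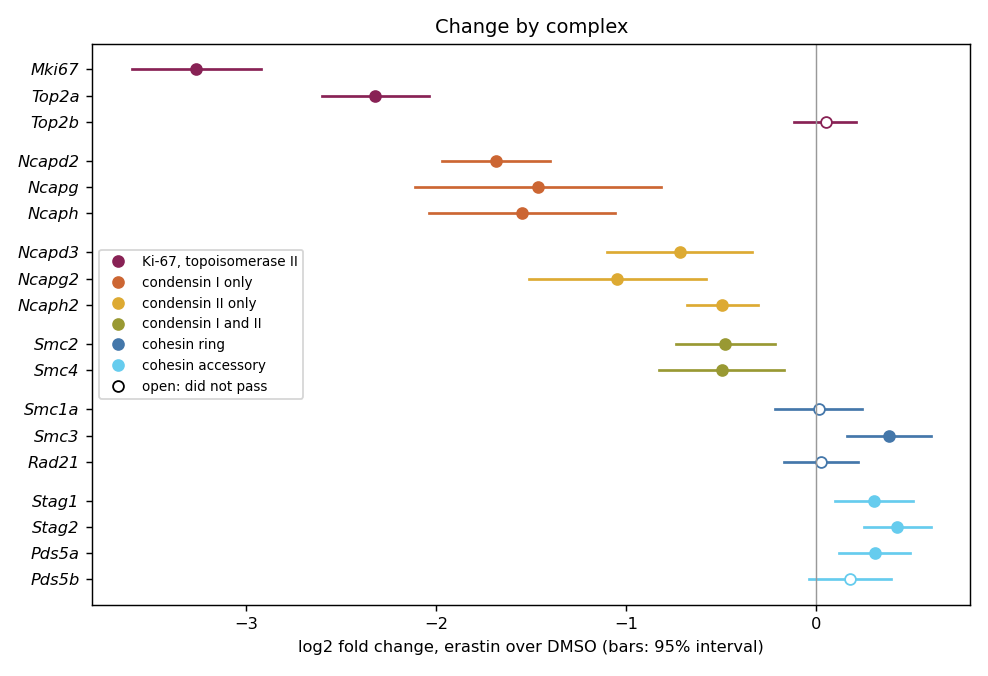
Log2 fold change of erastin over DMSO with its 95% interval, by complex; filled symbols passed at an adjusted p-value under 0.05. Values run from -3.26 for Mki67 through -1.69 to -1.46 for condensin I, -1.05 to -0.50 for condensin II, and 0.01 to 0.38 for the cohesin ring.

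Condensin II has its own 3 subunits, listed here as relatives of the 10 genes. Ncapd3, Ncapg2 and Ncaph2 all fell, with log2 fold changes of -0.72, -1.05 and -0.50 (edgeR, adjusted p = 0.0045, 0.00125 and 0.000308). Ncaph2, the kleisin of condensin II, had 76.0 ± 4.67 CPM in DMSO and 53.8 ± 0.748 CPM with erastin (SD, n = 3). Each condensin I subunit was compared with its condensin II counterpart within libraries. The ratio of Ncapd2 to Ncapd3 was 1.95-fold lower with erastin and that of Ncaph to Ncaph2 was 2.09-fold lower, in both cases without overlap and with an exact permutation p = 0.1, the smallest possible. The ratio of Ncapg to Ncapg2 was 1.33-fold lower, with overlapping groups (exact permutation p = 0.3).

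**Figure D3:**
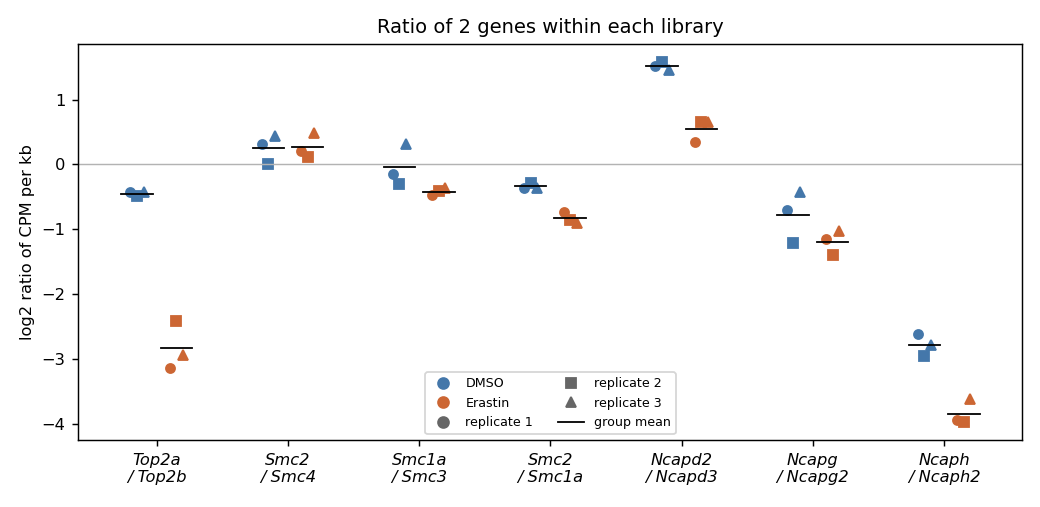
Log2 ratio of CPM per kilobase of exon for 7 pairs of genes; each symbol is a library and lines are group means. Top2a to Top2b averaged -0.45 in DMSO and -2.84 in erastin libraries; Smc2 to Smc4 averaged 0.25 and 0.27.

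Neither gene of the cohesin pair passed as lower. Smc1a (ENSMUSG00000041133.7, chrX:152016428-152062694, plus strand) had 42.4, 45.0 and 54.0 CPM in DMSO and 45.8, 47.4 and 49.4 CPM with erastin. All 3 erastin libraries lay inside the DMSO range. The log2 fold change of 0.01 (SE 0.11) had a 95% interval of -0.22 to 0.24 and did not pass (edgeR adjusted p = 0.934); its sign changed with the scaling, as upper-quartile factors gave -0.04.

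Smc3 (ENSMUSG00000024974.10, chr19:53600398-53645833, plus strand) was the only gene of the 10 that rose. It had 45.3, 53.3 and 41.6 CPM in DMSO and 60.9, 60.6 and 61.2 CPM with erastin. The erastin libraries were almost identical and above all DMSO libraries. The level was 1.30-fold higher (log2 change 0.38, SE 0.10, edgeR adjusted p = 0.00769). Over the 17 alternatives run, the change was 0.25 to 0.49, and the largest edgeR adjusted p was 0.0494. The ratio of Smc1a to Smc3 was -0.15, -0.30 and 0.32 in DMSO and -0.47, -0.41 and -0.37 with erastin, apart but spread in DMSO (exact permutation p = 0.1).

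None of the other mitotic cohesin subunits passed as lower. Of all genes tested 21.5% were lower and 21.6% higher. Of 5 ring and accessory genes 0 were lower (also 0 at an unadjusted p-value under 0.05 and with DESeq2), and 3 were higher: Stag2, Stag1 and Pds5a, with log2 fold changes of 0.42, 0.31 and 0.31 (adjusted p by edgeR 0.000741, 0.0165 and 0.0107). STAG proteins tie the ring to DNA and CTCF, and PDS5 proteins set how long it stays. After the correction for GC content and length 0 of the 3 passed (0.16, 0.15 and 0.17 in the same order; edgeR adjusted p = 0.151, 0.214 and 0.115). Stag1 also failed without DMSO replicate 2 (edgeR adjusted p = 0.0614) or erastin replicate 1 (edgeR adjusted p = 0.0931). Rad21, the kleisin of mitotic cohesin, had 98.6 ± 2.7 and 100 ± 11.5 CPM (SD, n = 3), and Pds5b had 46.3 ± 3.86 and 52.2 ± 2.94 CPM, and neither passed (edgeR adjusted p = 0.846 and 0.179). Of 4 meiotic subunits only Stag3 was counted enough to test, and its groups overlapped (3.74 ± 1.13 and 2.60 ± 0.28 CPM, SD, n = 3; edgeR adjusted p = 0.26); Rad21l had 0 reads in all libraries.

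The genes that load, protect and cut cohesin moved in both directions. Of 12 such genes 5 fell and 5 rose, beside 21.5% and 21.6% of all genes tested. The median log2 change was -0.32. The lower ones serve cohesion in S phase and mitosis. They were Espl1 (separase, which cleaves the ring), Sgo1 and Sgo2a (shugoshins, which protect centromeric cohesin), Esco2 (the S-phase acetyltransferase of SMC3) and Cdca5 (sororin). Espl1 had 13.0 ± 2.26 CPM in DMSO and 1.53 ± 0.653 CPM with erastin (SD, n = 3), a log2 change of -3.08 (adjusted p = 1.37e-06 by edgeR). For Sgo1, Esco2 and Sgo2a the log2 changes were -3.04, -2.96 and -2.20 (adjusted p by edgeR 5.43e-05, 0.00022 and 9.6e-06). Esco2 had as few as 6 reads in an erastin library and Sgo1 as few as 9, so their folds are imprecise (SE 0.49 and 0.43). The 5 higher genes, named after their values were seen, were Nipbl (the loader), Wapl (the release factor), Esco1 (the acetyltransferase that acts throughout the cell cycle), Hdac8 (the deacetylase of SMC3) and Ctcf. Their log2 fold changes ran from 0.34 for Wapl to 0.81 for Esco1, and 3 of the list passed as higher after the GC and length correction.

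For Ki-67, a list of 10 genes drawn up for its partners and the chromosome periphery was examined. The 3 mitotic ones fell: Hmmr (-2.37 on the log2 scale), Kif4 (-2.27), a chromokinesin that works with condensin, and Cdca2 (-2.17), or Repo-Man, which like Ki-67 binds protein phosphatase 1 on chromatin. Each had an edgeR adjusted p of at most 2.49e-05. Hmmr counts here as a mitotic gene only, and no role as a partner of Ki-67 or at the chromosome periphery is claimed for it. Nucleolar proteins that cover mitotic chromosomes together with Ki-67 went the other way, except Fbl (fibrillarin), which did not pass. Ncl (nucleolin) was at 308 ± 13 CPM in DMSO and 547 ± 18.5 CPM with erastin, and rose (adjusted p = 2.26e-07 by edgeR). Nifk, which binds the forkhead-associated domain of Ki-67, rose too, with 35.4 ± 2.58 and 61.0 ± 4.52 CPM (SD, n = 3; adjusted p = 1.89e-05 by edgeR). In all 6 of the 10 genes were higher, 3 lower, and 1 did not pass. The shares of all genes tested were 21.6% higher and 21.5% lower.

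Mitotic kinases that act on condensin were lower too. Of 11 condensin regulators 6 were lower, with Birc5 at -3.47, Plk1 at 12.5% of its DMSO level, Aurkb at -2.85 and Cdk1 at -1.69 in log2 (adjusted p by edgeR 2.99e-06, 2.45e-07, 6.85e-07 and 1.24e-06). Birc5 had as few as 8 reads in an erastin library, so its fold is imprecise (SE 0.37). CDK1, PLK1 and Aurora B phosphorylate condensin subunits in mitosis, and BIRC5 (survivin) is part of the Aurora B complex. Another 3 of the list (Set, Phf8 and Akap8) were higher, and this count was 1 without DMSO replicate 3, without erastin replicate 1 or without erastin replicate 3. Over all genes tested 21.5% were lower and 21.6% higher.

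Of 8 genes of the SMC5/6 complex, which acts in DNA repair, 6 did not pass, beside 7972 of 14000 over all genes. Nsmce1 was lower (-0.39, edgeR adjusted p = 0.023) and Nsmce3 higher (0.50, edgeR adjusted p = 0.0223). Slf2 (0.22) and Nsmce2 (-0.30) did not pass (edgeR adjusted p = 0.146 and 0.29). Without DMSO replicate 3, Slf2 passed as higher (0.32, edgeR adjusted p = 0.035). Nsmce1 failed without DMSO replicate 2 or 3, without erastin replicate 1 or 3 and under 5 other settings, and Nsmce3 without DMSO replicate 3 or erastin replicate 2 and after the GC and length correction; their adjusted p-values reached 0.143 and 0.159 over the alternatives. Of 7 other topoisomerases and TOP2 repair genes 6 did not pass, among them Top1 (45.0 ± 2.36 and 51.0 ± 2.54 CPM, SD, n = 3; edgeR adjusted p = 0.148). Nor did Top3b (-0.175 in log2) and Top1mt (-0.205), with edgeR adjusted p of 0.209 and 0.44. Zfp451, which helps clear trapped topoisomerase II, was higher by 0.34 (edgeR adjusted p = 0.0256) but failed without DMSO replicate 2, erastin replicate 1 or erastin replicate 2, with upper-quartile factors and after the GC and length correction, with an adjusted p of up to 0.379.

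**Figure D4:**
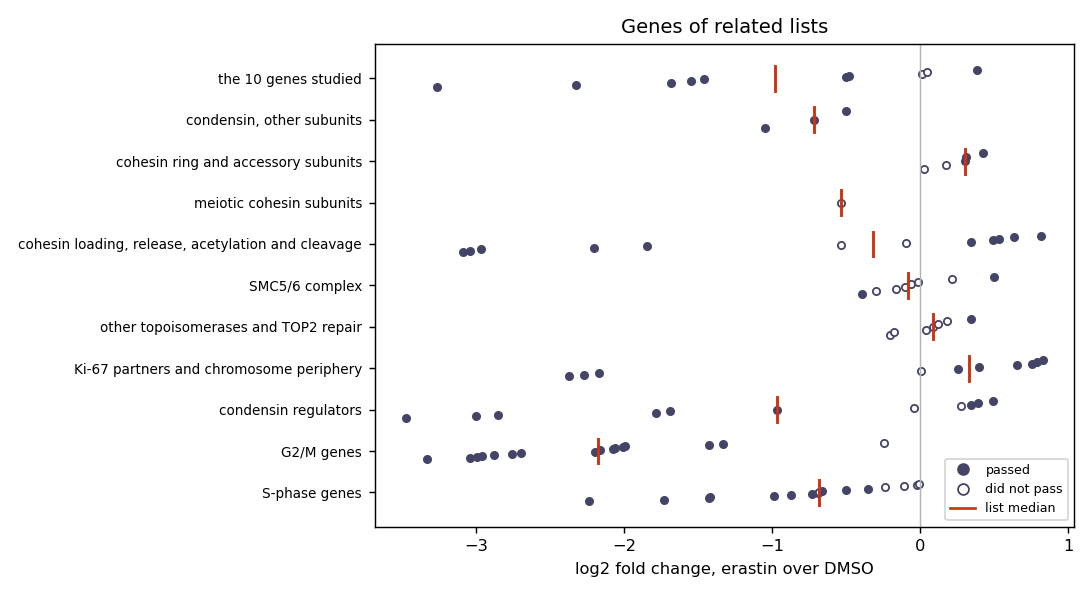
Log2 fold change of erastin over DMSO for every tested gene of the 10 studied here and of the related lists; filled symbols passed, open ones did not, and red lines are list medians. The G2/M list (median -2.18) lies lowest, while the cohesin ring and accessory list (0.30) lies above 0.

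General cell cycle genes, some of them known from an earlier look at these data, were mostly lower as well. Among 16 G2/M genes, edgeR called 15 lower and none higher, and the median was -2.18. Shares over all genes tested were 21.5% lower and 21.6% higher. Log2 changes were -3.33 for Kif11, -2.99 for Cenpf, -2.88 for Ccna2 and -2.16 for Ube2c (edgeR, adjusted p at most 3.47e-07). Among 16 S-phase genes, 11 were called lower, none higher, and the median was -0.69. Log2 changes were -2.24 for Mcm5, -1.43 for Uhrf1, -0.87 for Mcm6 and -0.69 for Rrm2. Unadjusted p-values under 0.05 numbered 16 and 12, with 0 higher in either list, and DESeq2 also called 0 higher. The condensin I subunits, Smc2 and Smc4 lay within the ranges of both lists (-3.33 to -0.24 for G2/M and -2.24 to -0.01 for S phase). For Smc2 (-0.48) and Smc4 (-0.50) this held in the G2/M list only through Tpx2 (-0.24), which did not pass (edgeR adjusted p = 0.057). The smallest fall among the G2/M genes called lower was -1.33, for Cdc25c, so the condensin SMC pair fell less than all of them. Top2a and Mki67 lay within that of the G2/M list. The part of a change in cell cycle composition in these values was not tested.

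Levels can be compared between genes only per length. In DMSO, CPM per kilobase of exon ran from 10.8 ± 0.542 for Top2b to 1.10 ± 0.211 for Ncapg (SD, n = 3). Between them came Mki67 (8.65 ± 2.02), Smc3 (8.43 ± 1.08), Smc1a (8.17 ± 1.06) and Top2a (7.94 ± 0.237), each overlapping its neighbour. Smc2 (6.48 ± 0.811), Ncapd2 (6.05 ± 0.69) and Smc4 (5.47 ± 0.93) overlapped likewise, and Ncaph stood at 2.64 ± 0.315.

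With erastin the order changed. Top2b (11.2 ± 0.558) and Smc3 (11.0 ± 0.0539) led and overlapped, followed by Smc1a (8.24 ± 0.313), Smc2 (4.64 ± 0.0975) and Smc4 (3.88 ± 0.517) without overlap (CPM per kilobase, SD, n = 3). Ncapd2 (1.88 ± 0.075) and Top2a (1.59 ± 0.34) overlapped, as did Mki67 (0.901 ± 0.0975) and Ncaph (0.899 ± 0.139), and Ncapg was last at 0.398 ± 0.108. Mki67 was in place 2 in DMSO and place 8 with erastin. The places depend on the length used. Per kilobase of the longest transcript Mki67 was in place 5 in DMSO (8.65), after Top2b (15.3), Top2a (13.7), Smc1a (10.0) and Smc3 (9.63). With erastin it was then in place 9 (0.901), after Ncaph (1.44).

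The genes whose pattern over the 6 libraries was most like that of Mki67 (smallest root mean square difference of centred log2 CPM, 0.26 to 0.27) were Elobl, Kif26b, Tk1, Gm42743 and Kif2c. Tk1 is a thymidine kinase made in S phase and Kif2c a mitotic kinesin that shortens microtubules. No cell cycle role is claimed here for Elobl, Kif26b and Gm42743. Nearest to Top2a (0.08 to 0.15) were Hist1h3e, Gamt, Tmem119, Cdca2 and Wnt2b. Hist1h3e is a histone gene with near-identical copies, so its own count is uncertain. For Gamt, Tmem119 and Wnt2b no cell cycle role is claimed either. Fold changes of these neighbours were -3.60 to -2.98 for Mki67 and -2.43 to -2.17 for Top2a on the log2 scale. The neighbours were picked by the same pattern, so these close values follow from the selection.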

How the data were processed

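RNA of 3 DMSO and 3 erastin samples was sequenced on an Ion Proton instrument. The authors deposited whole-number read counts per gene, not normalized; HTSeq 0.9.1, SAMtools and build mm10 are named per the submitters' processing notes, and the aligner, annotation and strand setting are not given in the sources used here. Columns were matched to libraries by the sample numbers in the descriptions; 0 were left unused. Of 43346 genes, 42462 (98%) had a GENCODE M21 symbol, and coordinates are from that annotation (GRCm38).

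Counts were tested with edgeR 4.0.16 in R 4.3.3: filterByExpr (minimum count 10, total 15), TMM factors, glmQLFit and glmQLFTest with treatment as the only term over all 6 libraries, Benjamini-Hochberg over 14000 genes, threshold 0.05. The biological coefficient of variation was 15.1%. The fit was tested on simulated data. Lengths are unions of exons. Ratios of 2 genes were compared by exact two-sided permutation. No molecular identifiers are described, so the floor of 3 counts covers counting error only.

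The 10 genes and the lists were chosen with earlier results of these data known. Named are the 10 genes, the other condensin and cohesin subunits, the 4 smallest p-values of each other list, the genes in ratios and the 5 most similar to Mki67 and to Top2a (mean count at least 50); other names were chosen after their values were seen. Alternatives were RLE, upper-quartile and no factors, no filter, a minimum of 1 CPM in 3 libraries, a replicate block, each library left out, DESeq2 1.42.0, an offset for GC content and length (mgcv 1.9.3), thinning to the smallest library, an adjusted p-value under 0.01 and, for levels, the longest transcript. A planned comparison of protein sequences was not made, and 1 list of cell type markers is not reported here.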

Additional observations from a re-analysis of the deposited data

How the results depend on the processing

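Over the alternatives run, 6 to 7 of the 10 genes were lower and 1 was higher; with the replicate block 7 were lower, and 5882 of all genes passed in place of 6028. Libraries with the same number deviated from their groups with correlations of -0.006 to 0.04, beside -0.045 to 0.035 for unlike numbers. With so few libraries these values cannot tell whether cultures or days were shared. The block changed no call among the 10 genes. Mki67, Top2a, Smc2, Smc3, Ncapd2, Ncapg and Ncaph had the same direction and call under each of 17 alternatives; Smc4 did so under 15. The scaling moved the share of higher genes among those passing from 50.2% to 44.0% with upper-quartile factors and 57.1% with total counts, and the median of all genes to -0.0552 and 0.0646.

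Small values that did not pass changed sign, and none passed in doing so. With upper-quartile factors, which lower all values alike, Top2b was -0.006, Smc1a -0.04 and Rad21 -0.028. With the GC and length offset Top2b was -0.113, Smc1a -0.055, Rad21 -0.047 and Pds5b -0.027, and with the replicate block added -0.113, -0.049, -0.052 and -0.025. Leaving out 1 library gave -0.056 to 0.119 for Smc1a, -0.068 to 0.086 for Rad21, -0.488 to 0.044 for Nsmce2 and -0.109 to 0.111 for the log2 ratio of Smc2 to Smc4. Where no reason is given, the cause was not tested. Ncapg, the least counted of the 10 genes, had the widest SE (0.30); thinned to the smallest library it was -1.493.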

Other observations

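Within DMSO, the libraries were not alike in these genes. Replicate 1 lay below the group mean in 7 of the 10 genes, by 0.41 on the log2 scale for Mki67, 0.24 for Smc4, 0.18 for Smc2 and 0.17 for Ncapd2, but above it by 0.23 for Ncapg and 0.19 for Ncaph. Replicate 3, which stands apart on the second principal component, was above the mean by 0.28 for Mki67, 0.18 for Smc2 and 0.16 for Ncapd2. It was below the mean in 5 of the 10 genes, by 0.16 for Smc3 and 0.10 for Ncaph. With 3 libraries these deviations were not tested.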
